A study of Saccharomyces cerevisiae with 112 samples.

Results

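The mitochondrial ribosomal protein genes of the yeast Saccharomyces cerevisiae are the nuclear genes for the proteins of the ribosome that works inside mitochondria, here those whose standard symbol begins with MRPL, MRPS or RSM followed by a number. The rule uses names only and no measured value. It found 54 genes among the 5560 features of the deposited tables, of which 34 are MRPL genes of the large subunit and 20 are genes of the small subunit, 9 named MRPS and 11 named RSM. In the gene table of the organism 53 of the 54 carry a ribosomal protein family name, which is shared with all ribosomes for 24 genes, shared with bacterial ribosomes for 9 and specific to mitochondria for 20. RSM22, a methyltransferase-like protein of the small subunit, has none.

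The mitochondrial ribosome translates the few mRNAs of the mitochondrial genome, most of which encode core subunits of the respiratory chain and the ATP synthase. Its RNA comes from that genome, whereas its proteins are encoded in the nucleus, translated in the cytosol and imported. In yeast many of their mRNAs carry sites for the RNA-binding protein Puf3, and their levels are known to differ between fermenting and respiring cells. The present data follow them when glucose is taken away, which stops fermentation abruptly. The tables count reads in windows at 3' ends of genes and were made for SLAM-seq, in which newly made RNA takes up 4-thiouracil (4TU), iodoacetamide treatment turns the incorporated base into a T-to-C conversion, and a read with such a conversion counts as labelled.

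The analysis used 40 of 112 samples. The first experiment is a decay course of strain KWY165, called the chase here, without glucose and with glucose at 0, 5, 10, 15, 20, 30 and 45 min, with 2 libraries in each of its 14 groups. The second is strain KWY11376 with 4TU, in which polysomal and total RNA were sequenced after 30 min without glucose, titled as post-labelling, and with glucose at 30 min, with 2 libraries in each of its 4 groups. The third is KWY165 without 4TU, with 1 library each of polysomal and total RNA after 30 min without glucose and with glucose. The labels give a strain code and no genotype. Whether the libraries of a group came from separate cultures is not said, and the p-values cover only the spread between them, which may be technical. All 54 genes passed the expression filter in every comparison. The chase libraries held 2710630 to 10591665 yeast reads and the others 14965187 to 31069123. The lowest count of a member was 60 reads in the chase libraries and 30 in the others.

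At the start of the chase no difference in level between the conditions passed the test. Between libraries without and with glucose at 0 min, edgeR called 0 of 54 higher and 0 lower after Benjamini-Hochberg adjustment (0.109% and 0.398% of all genes were called) and 1 member had an unadjusted p under 0.05. Another tool was not run at this time. From 10 min on, more members were higher than lower without glucose with TMM factors and with library totals. With spike-in reads this held at 10 and 20 min only. There 0 were higher and 10 lower at 15 min, 7 and 8 at 30 min and 2 and 12 at 45 min. The shares of all genes with spike-in reads were 14.5% and 36.7% at 15 min, 21.5% and 44.3% at 30 min and 19.7% and 51.2% at 45 min. The following counts are with TMM factors. The count of higher members was 3 at 5 min, 15 at 10 min, 21 at 15 min, 25 at 20 min, 30 at 30 min and 31 at 45 min, against 8.14%, 22.3%, 30.9%, 34.1%, 38.3% and 40% of all genes tested. The count of lower members was 2, 4, 6, 4, 6 and 3 at the same times, against 5.45%, 18.2%, 26%, 29.6%, 34.7% and 36.9% of all genes. Single libraries moved the smaller counts. At 5 min, members higher and lower were 0 and 0 without the first library without glucose, 2 and 5 without the second, 1 and 2 without the first library with glucose and 0 and 1 without the second. At 10 min they were 9 and 2 without the first library without glucose, 11 and 2 without the second, 8 and 0 without the first library with glucose and 10 and 2 without the second. The lower members at 15 min were 3 without the first library without glucose and 2 without the first library with glucose. At 20 min they were 1 without the second library without glucose and 2 without either library with glucose.

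The median log2 change of the members without over with glucose was 0.43 at 30 min, against 0.06 for all genes, and it was 0.41 at 45 min, against 0.05. The direction of the median depended on the scaling: it was 0.43 with TMM factors and 0.73 with library totals, and it was -0.05 when libraries were scaled to their spike-in reads. With spike-in scaling the median of all genes was -0.42 at 30 min, against 0.36 with library totals. A scaling shifts all genes of a library alike, so the distance of 0.37 between the member median and that of all genes is nearly the same under each and is no sign of stability. Among all genes the calls at 30 min were 2117 higher and 1918 lower with TMM, 2622 and 1409 with library totals, and 1186 and 2446 with spike-in reads. From here on, tested log2 changes of level and their calls are with TMM unless another scaling is named, and so relative to the other mRNAs. CPM and shares of the library are scaled to library totals and can differ from these log2 changes.

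The summed share of the 54 genes went in opposite directions in the conditions. Without glucose they made up 0.368% and 0.388% of the library at 0 min, 0.517% and 0.463% at 30 min and 0.516% and 0.473% at 45 min. With glucose they made up 0.405% and 0.399% at 0 min, 0.291% and 0.285% at 30 min and 0.276% and 0.294% at 45 min. The share was thus larger at the end than at the start in both courses without glucose and smaller in both courses with glucose. The conditions did not overlap from 10 min on. Per spike-in read, reads of the members at 45 min were 71.6% and 57.2% of those at 0 min without glucose. The values with glucose were 86.7% and 54.3%, so this measure was lower at 45 min in both conditions. Cytosolic ribosomal protein genes went from 28.5% and 29.7% of the library at 0 min to 12.7% and 14.1% at 30 min without glucose. Their share with glucose went from 28.1% and 28.5% to 36.6% and 38.2%. The part of this shift in the members' share was not tested. Tested within a condition, 21 members were higher and 5 lower at 30 than at 0 min without glucose, against 36.1% and 35% of all genes. With glucose 0 were higher and 4 were lower, against 3.57% and 2.5% of all genes, and 18 members had an unadjusted p under 0.05. The 4 were MRPS12, MRPL40, MRPS5 and MRPL8, named here because they are few. The change from 0 to 30 min was larger without glucose for 27 members and smaller for 2, RSM22 and MRPL51, against 32.2% and 29.2% of all genes. With library totals the counts were 43 and 0, against 41.6% and 20.4% of all genes. With spike-in reads they were 5 and 3, against 16.1% and 32.8% of all genes. With TMM it was smaller for 1 without either library with glucose at 0 min, without the first library with glucose at 30 min or without the second library without glucose at 0 min.

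**Figure D1:**
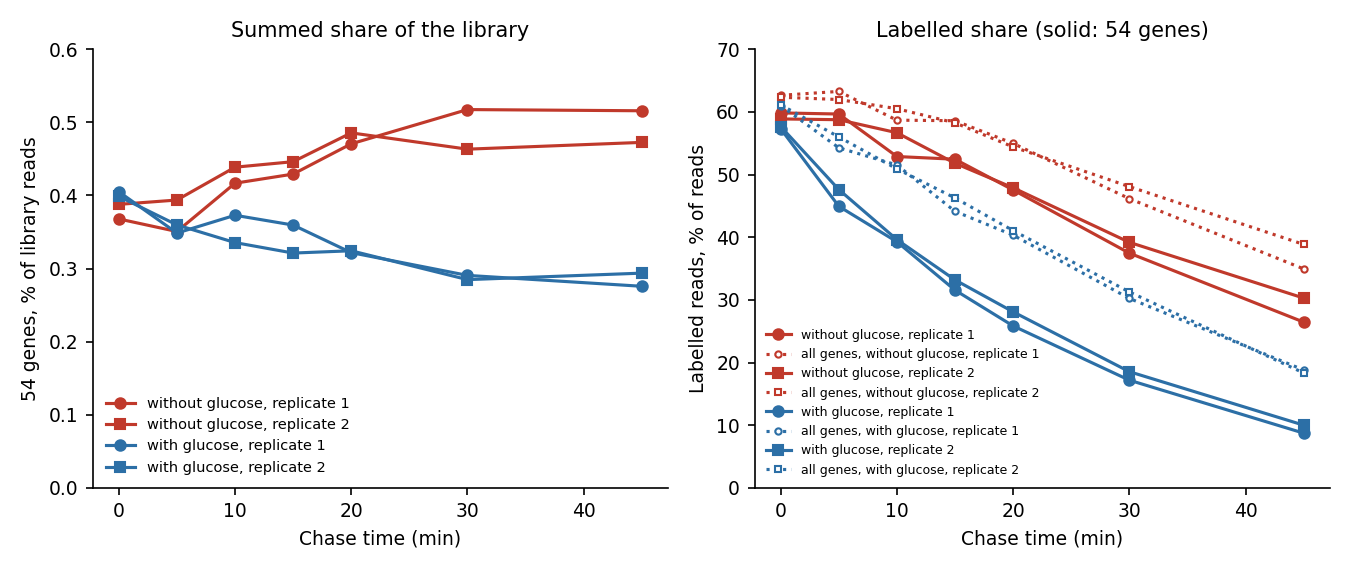
Reads of the 54 genes as a share of all yeast reads of the library (left, %) and labelled reads as a share of reads (right, %) over the chase time in min, without glucose in red and with glucose in blue, with each of the 2 libraries per time as a marker; dotted lines show all genes. The summed share reached 0.516% and 0.473% without glucose at 45 min and 0.276% and 0.294% with glucose, and the labelled share of the 54 genes lay below that of all genes at each time.

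The largest increases at 30 min were in MRPS12, RSM10, MRPL1, RSM28 and MRPL4. RSM10, which encodes the small-subunit protein of the S10 family, had 217 and 212 CPM without glucose and 57.1 and 56.1 CPM with glucose, a log2 change of 1.62 ± 0.11 (SE; edgeR adjusted p = 2.9e-12). Its level without glucose was higher at later times, with 84.5 and 87.6 CPM at 5 min, 164 and 157 CPM at 20 min and 243 and 252 CPM at 45 min, whereas with glucose all 14 libraries lay between 47.6 and 68.4 CPM. The libraries of the conditions did not overlap at any time, and the gap at 0 min was small. RSM10 was also called at every time from 5 min, the earliest with a log2 change of 0.46 ± 0.11 (adjusted p = 0.0074).

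MRPL1, the protein of the mobile L1 stalk of the large subunit, had 94.5 and 105 CPM without glucose at 30 min and 27.3 and 25.8 CPM with glucose, a log2 change of 1.61 ± 0.17 (adjusted p = 6.8e-09). MRPL4, of the L29 family at the exit of the peptide tunnel, had 174 and 127 CPM without glucose and 53.0 and 48.7 CPM with glucose, a log2 change of 1.26 ± 0.14 (adjusted p = 1.7e-08). RSM28, a small-subunit protein specific to mitochondria, had 96.9 and 90.1 CPM without glucose and 29.1 and 34.4 CPM with glucose, a log2 change of 1.27 ± 0.13 (adjusted p = 5.0e-09). In these 3 genes the lower library without glucose was far above the higher library with glucose. With glucose MRPL4 had 84.7 and 73.3 CPM at 0 min, above its values at 30 min, but this change within the condition did not pass the test.

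MRPS12 encodes the S12 family protein of the decoding centre and had the largest log2 change at 30 min, 1.82 ± 0.28 (adjusted p = 5.6e-06). It had 64.4 and 55.9 CPM at 0 min without glucose and 75.0 and 57.1 CPM at 0 min with glucose. At 30 min it had 108 and 123 CPM without glucose and 31.0 and 22.1 CPM with glucose, and at 45 min 115 and 53.8 CPM without glucose and 13.5 and 16.4 CPM with glucose. The conditions overlapped at 0 min and did not at 30 and 45 min, and the 2 libraries without glucose at 45 min lay far apart. Its log2 change within the glucose courses was the lowest of the members, with a log2 change of -1.04 at 30 min (adjusted p = 0.03) and -1.78 at 45 min (adjusted p = 0.00022) from 0 min. MRPS12 has its window on chromosome XIV, 693992 to 694611 on the minus strand, next to that of RSM19 at 694678 to 695302 on the same strand; 3.65% of its reads were multimapped, the largest share of the members.

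A set of 6 genes was lower at 30 min without glucose: MRPL11, RSM22, MRPL37, MRPL50, MRPL51 and MRPL20. MRPL11, of the L10 family at the base of the stalk that binds translation factors, had 59.7 and 45.6 CPM without glucose and 62.5 and 60.4 CPM with glucose, a log2 change of -0.53 ± 0.15 (adjusted p = 0.0026). MRPL37, a large-subunit protein specific to mitochondria, had 98.1 and 90.3 CPM without glucose and 107 and 112 CPM with glucose, a log2 change of -0.51 ± 0.14 (adjusted p = 0.0017). RSM22 had 24.4 and 20.2 CPM without glucose and 27.8 and 24 CPM with glucose, a log2 change of -0.52 ± 0.19 (adjusted p = 0.015). On the CPM scale the conditions did not overlap in MRPL11 and MRPL37 and overlapped in RSM22, as they did in MRPL50, which had 121 and 84.9 CPM without glucose and 105 and 116 CPM with glucose. These calls rest on the scaling: with library totals 0 members were lower at 30 min. Without the first library with glucose 3 members were lower, and without the second library without glucose 2 were.

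The 7 genes chosen by name show the range of time courses. MRPL4 was higher without glucose from 10 min on, with log2 changes of 0.49, 0.59, 1.04, 1.26 and 1.19 at 10, 15, 20, 30 and 45 min. MRPL6, of the L6 family, was higher from 15 min, with 0.78 at 15 min, 0.52 at 20 min, 1.0 at 30 min and 0.82 at 45 min. MRPS5, of the S5 family near the mRNA entry of the small subunit, was higher from 20 min, with 0.64, 0.70 and 0.81 at 20, 30 and 45 min. MRPS5 had 65.0 and 59.4 CPM without glucose at 45 min, and 31.1 and 26.2 CPM with glucose at 45 min, when its level had fallen from 0 min (log2 change -0.68, adjusted p = 0.0052).

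MRPS28, of the S15 family, passed the test at 10 min, close to the threshold, and at 45 min, with log2 changes of 0.36 and 0.39, and did not at 30 min, with 0.16 ± 0.15 (adjusted p = 0.34). MRPL36, of the bacterial L31 family, was lower at 10 min with -0.31 and had 0.12 ± 0.11 at 30 min (adjusted p = 0.35). MRPL50, of the bacterial L9 family, was lower at 5, 10, 15, 20 and 30 min, with -0.57, -0.48, -0.57, -0.48 and -0.40, and had -0.06 ± 0.14 at 45 min (adjusted p = 0.7), when it had 131 and 122 CPM without glucose and 107 and 104 CPM with glucose. RSM10 was the other of the 7, and had log2 changes of 0.46 at 5 min and 1.75 at 45 min.

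**Figure D2:**
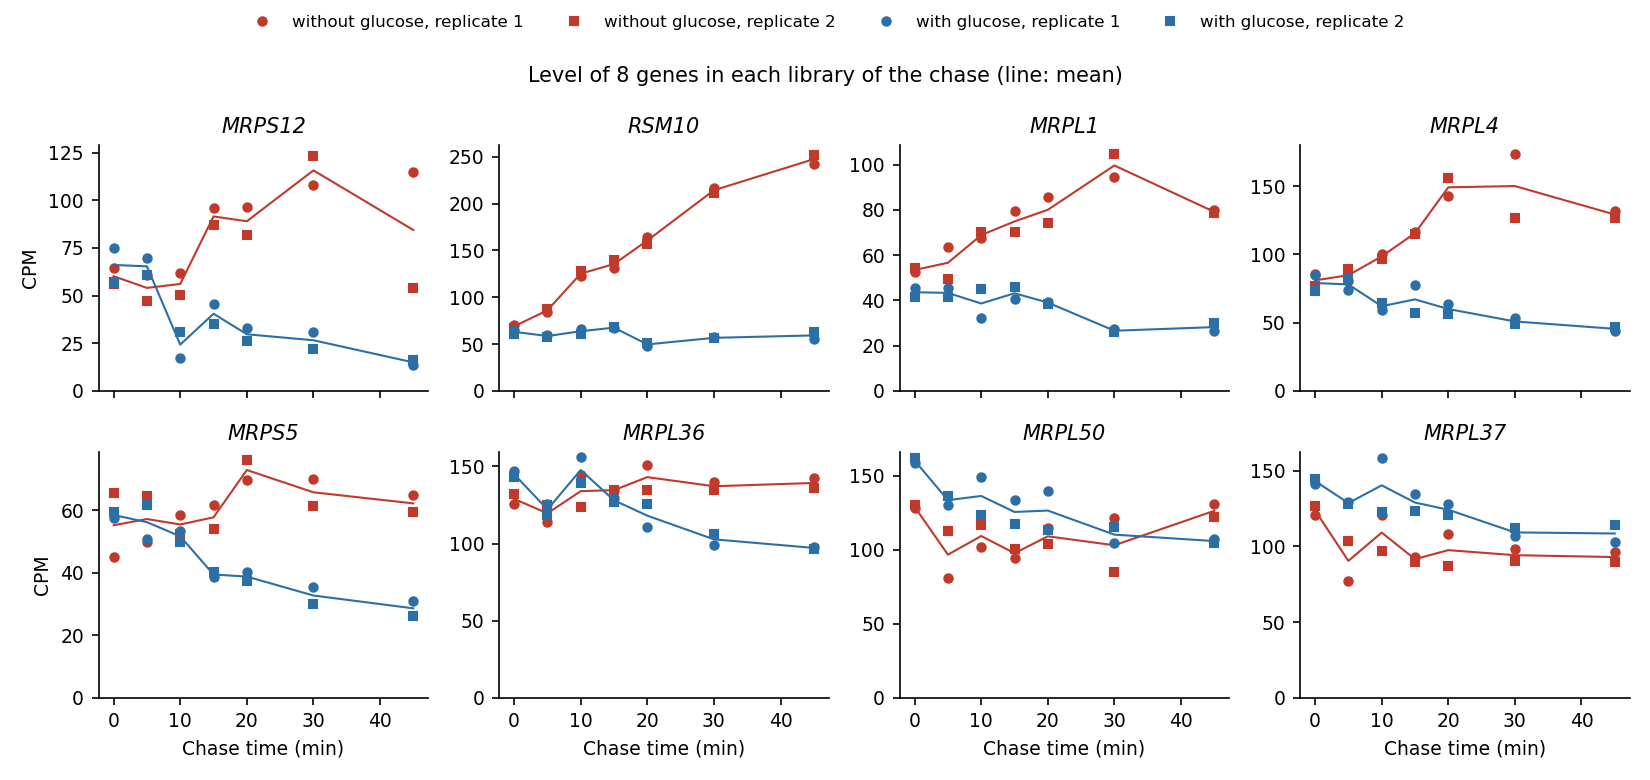
CPM of 8 genes in each library over the chase time in min, without glucose in red and with glucose in blue, with the 2 libraries as circles and squares and the line through their mean. RSM10 reached 243 and 252 CPM without glucose at 45 min and stayed between 47.6 and 68.4 CPM with glucose. MRPL37 was lower without glucose at 30 min, whereas the libraries of MRPL50 overlapped on the CPM scale.

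Both subunits had more higher than lower members. At 30 min 17 of 34 large-subunit genes were higher and 5 lower, with a median log2 change of 0.40, and 13 of 20 small-subunit genes were higher and 1 lower, with a median of 0.63. Of the 24 genes of universal families 15 were higher and 1 lower, of the 9 bacterial ones 3 were higher and 1 lower, and of the 20 specific to mitochondria 12 were higher and 3 lower. The difference between these groups was not tested. Over the 14 chase groups the mean log2 CPM of MRPL32, MRPL4 and MRPL9 had the highest Pearson correlation with the mean of the other members, at 0.98, 0.98 and 0.97. MRPL32 is of the bacterial L32 family and MRPL9 of the L3 family. MRPL37, RSM22 and MRPL50 had the lowest, at -0.49, -0.17 and -0.16. The 14 values are means of libraries with the same depths for all genes, and the correlations are descriptions.

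The label gives a second view of the same libraries. At 0 min 59.8% and 58.9% of the reads of the 54 genes were labelled without glucose and 57.3% and 57.7% with glucose, and the labelled odds of 0 members differed (0% and 0% of all genes were called higher or lower; 2 members had an unadjusted p under 0.05). At 45 min 26.5% and 30.3% were labelled without glucose and 8.73% and 10.01% with glucose. The labelled share was therefore larger without glucose at 45 min, and the courses, close together at 0 min, lay apart at every later time. The slope of the log2 labelled odds per 10 min passed the test as below 0 for all 54 genes in both conditions, as it did for 91.8% of all genes without glucose and 99.8% with glucose, with member medians of -0.45 without glucose and -0.82 with glucose. The difference of slopes passed the test as higher without glucose for 54 of 54 members, against 93.2% of all genes, with a median of 0.36 for the members and 0.39 for all genes. A slower fall of the labelled odds without glucose was thus shared by nearly all genes. Relative to the labelled odds of the library, the difference of slopes passed the test as higher for 13 of the 54 members and for 2113 of 5224 genes (40.4%).

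The labelled share of the 54 genes fell faster than that of their libraries as a whole. Without glucose 26.5% and 30.3% of the members' reads were labelled at 45 min, against 34.9% and 38.9% of all reads. With glucose 8.73% and 10.01% of the members' reads were still labelled at 45 min, against 18.8% and 18.3% of all reads. Relative to the library's labelled odds, the slope without glucose was lower for 28 members and higher for 0, against 20.6% and 20.1% of all genes, and the slope with glucose was lower for 49 members and higher for 0, against 66.7% and 2.95% of all genes. The member medians of these relative slopes were -0.10 without glucose and -0.21 with glucose per 10 min, and those of all genes -0.03 and -0.16. Without the first or second course without glucose, the median without glucose was -0.10 or -0.11, against -0.04 or -0.02 for all genes. Without the first or second course with glucose, the median with glucose was -0.18 or -0.24, against -0.14 or -0.18. Fewer of all genes were called lower in each of these fits. Without the first course without glucose 15 members had a lower slope without glucose, and without the second 8 had. Without the first course with glucose 32 members had a lower slope with glucose.

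The slopes of single genes differed, and their SE and p-values again take the libraries of a course as independent. MRPL31, specific to mitochondria, had the steepest slope without glucose, -0.57 ± 0.04 (adjusted p = 2.8e-21). Its labelled share without glucose was 69.3% and 70.5% at 0 min and 26.2% and 29.8% at 45 min, and with glucose it was 65.3% and 67.4% at 0 min and 6.11% and 8.97% at 45 min. MRPL20, a large-subunit protein specific to mitochondria, had a shallow slope without glucose, -0.29 ± 0.05 (adjusted p = 2.5e-07), and the largest difference between conditions, 0.53 ± 0.08 (adjusted p = 2.0e-09). It had 26.1% and 38.3% labelled reads at 45 min without glucose and 8.06% and 10.7% with glucose. RSM10 had the smallest difference, 0.19 ± 0.06 (adjusted p = 0.0014), with 22.6% and 29.5% at 45 min without glucose and 8.54% and 13% with glucose. In all 3 genes the conditions did not overlap at 45 min.

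**Figure D3:**
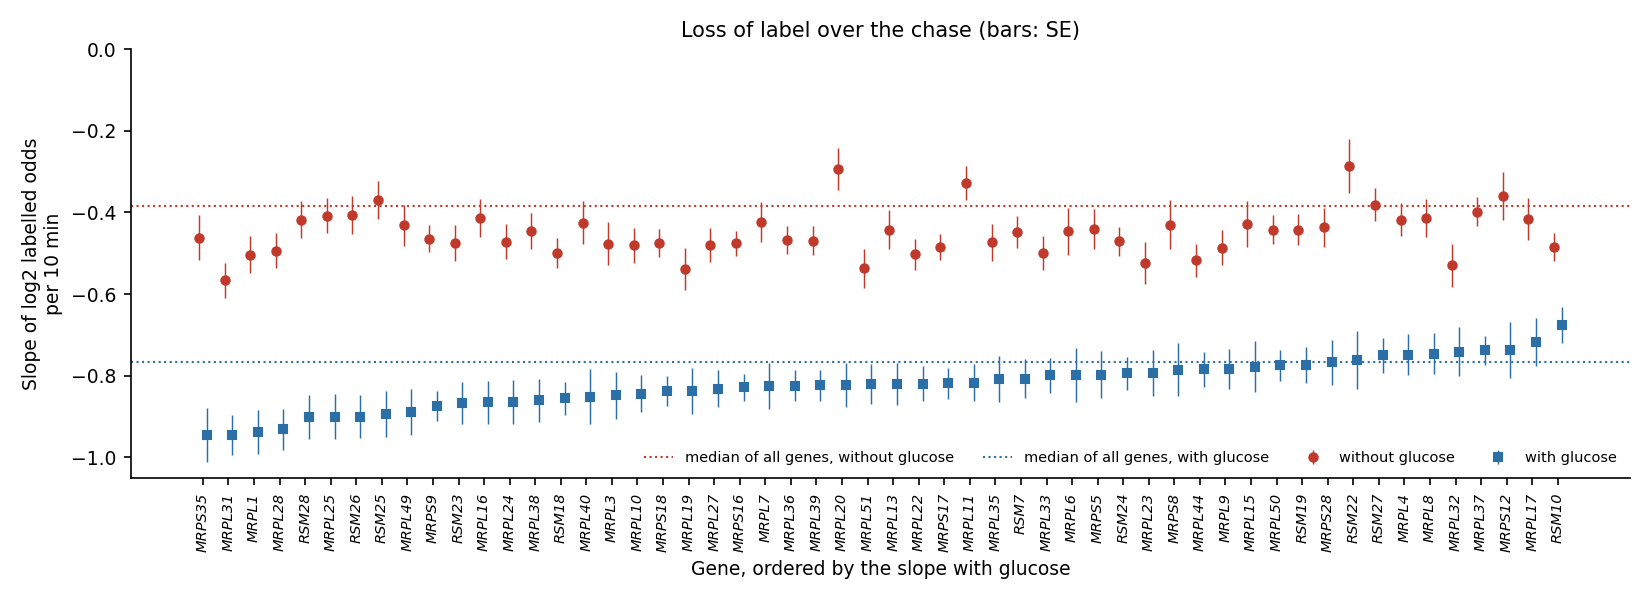
Slope of the log2 labelled odds per 10 min of chase for each of the 54 genes, without glucose in red and with glucose in blue, with bars of 1 SE and genes ordered by the slope with glucose; dotted lines are the medians of all genes. Every gene has a less negative slope without glucose, and the member medians are -0.45 without glucose and -0.82 with glucose.

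The labelled share mixes the loss of labelled copies with the making of unlabelled ones. Labelled reads per spike-in read follow the labelled copies alone, as far as the spike-in was added evenly. By this measure 31.6% and 29.4% of the members' labelled reads at 0 min were left at 45 min without glucose, and 13.2% and 9.42% with glucose. For all genes 28.5% and 29.2% were left without glucose, and 39.3% and 22.1% with glucose. The log2 slope per 10 min had a member median of -0.38 without glucose and -0.67 with glucose, and a fall passed the test for 52 members without glucose and 54 with glucose, against 81.5% and 99% of all genes. It differed between the conditions for 46 members, all with a slower fall without glucose. Among all genes 44.3% were called with a slower and 8.5% with a faster fall. For all genes the medians were -0.41 without glucose and -0.59 with glucose.

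RSM10 and MRPS12 were the 2 genes whose labelled reads per spike-in read did not pass the test for a fall without glucose, with slopes of -0.06 ± 0.06 (adjusted p = 0.35) and -0.11 ± 0.08 (adjusted p = 0.21). With glucose the slopes were -0.49 for RSM10 and -0.68 for MRPS12. At the other end, the slopes of RSM22 were -0.60 without glucose and -0.65 with glucose, a difference of 0.05 ± 0.09 (adjusted p = 0.7). In both RSM10 and MRPS12 the difference between the conditions passed the test, at 0.43 ± 0.09 and 0.57 ± 0.12 (adjusted p = 3.2e-05 and 0.00013).

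In total RNA of the 4TU experiment the genes did not show the pattern of the chase. Without glucose 2 members were higher and 19 lower than with glucose, against 29.4% and 29.3% of all genes, and the median log2 change was -0.34, against -0.02 for all genes. The summed share was 0.330% and 0.341% of the library without glucose and 0.593% and 0.481% with glucose. Without the first library without glucose 12 members were lower. With library totals 2 members were higher and 38 lower, while all genes were called 1052 higher and 2344 lower instead of 1628 and 1625.

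The 2 higher genes, RSM10 and MRPL1, were also among the 3 with the largest increase in the chase at 30 min. RSM10 had 207 and 207 CPM without glucose and 109 and 79.2 CPM with glucose, a log2 change of 1.58 ± 0.21 (adjusted p = 9.1e-06). MRPL1 had 117 and 132 CPM without glucose and 76.4 and 86.1 CPM with glucose, a log2 change of 1.03 ± 0.19 (adjusted p = 0.00019). In both genes the libraries of the conditions did not overlap.

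The lower genes were led by MRPS12, RSM22, MRPL20, MRPL15 and MRPL44. MRPS12 had 21.7 and 18.3 CPM without glucose and 91.8 and 157 CPM with glucose, a log2 change of -2.24 ± 0.32 (adjusted p = 2.3e-05), the reverse of its change in the chase. RSM22 had 7.24 and 5.21 CPM without glucose and 29.5 and 25.9 CPM with glucose, a log2 change of -1.72 ± 0.30 (adjusted p = 0.00015). MRPL20 had 16.2 and 19.5 CPM without glucose and 88.1 and 60.3 CPM with glucose, a log2 change of -1.61 ± 0.24 (adjusted p = 3.8e-05). MRPL15 and MRPL44, both specific to mitochondria, had log2 changes of -1.31 ± 0.28 and -1.16 ± 0.31. In the first 3 genes the libraries without glucose lay far below those with glucose.

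Fitted together, the change without over with glucose was larger in the chase at 30 min than in 4TU total RNA for 36 members and smaller for 0, against 26.5% and 20.5% of all genes, with a median difference of 0.78 for the members and 0.09 for all genes. MRPS12 had the largest difference, 4.07 ± 0.47 (adjusted p = 9.3e-08), followed by MRPL15 with 1.76 ± 0.35 (adjusted p = 0.00012) and MRPL4 with 1.68 ± 0.21 (adjusted p = 1.8e-07). RSM10 had 0.06 ± 0.20 (adjusted p = 0.83). The 2 experiments differ in strain and labelling scheme and may differ in batch of libraries, and their parts cannot be told apart. Across the 54 genes the log2 changes in the experiments, which share no library, had a Pearson correlation of 0.51 and a Spearman correlation of 0.60, and a Pearson correlation of 0.75 without MRPS12. The sign was shared by 21 of the 54 genes. These correlations are descriptions across genes, which are not independent replicates.

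**Figure D4:**
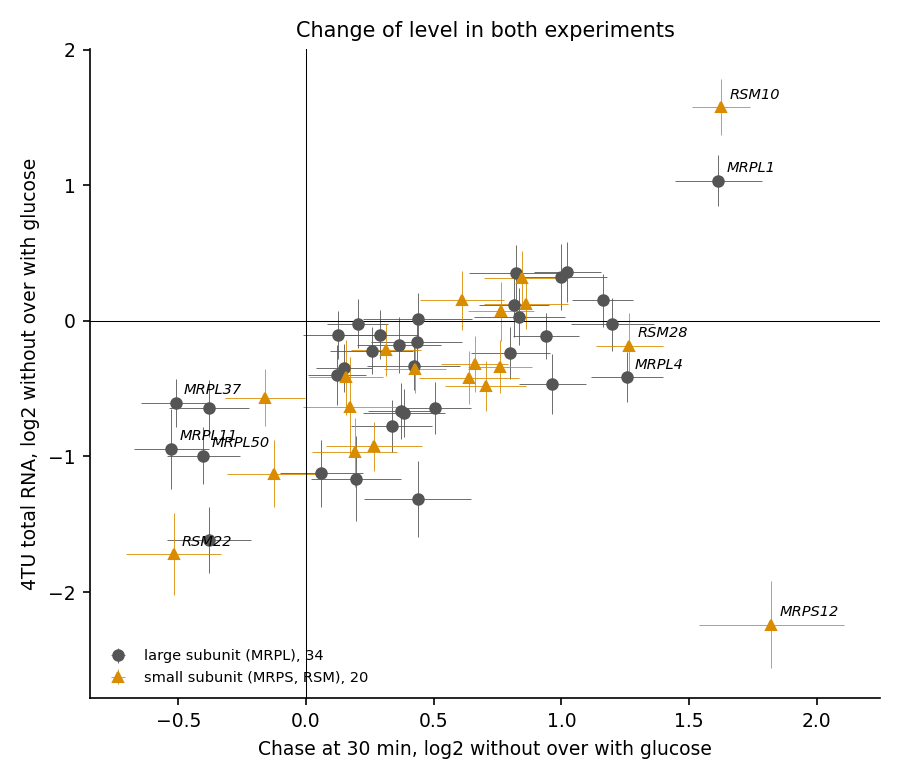
Log2 change without over with glucose of each of the 54 genes in the chase at 30 min (x axis) and in total RNA of the 4TU experiment (y axis), with bars of 1 SE, circles for the large and triangles for the small subunit. Most genes lie to the right of 0 on the x axis and below 0 on the y axis; RSM10 and MRPL1 are higher in both, and MRPS12 is at 1.82 and -2.24.

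The libraries without 4TU have 1 per group and so no replicate check. Without over with glucose the median log2 ratio of CPM of the 54 genes in total RNA was 0.16, and 9 were over 1.5-fold higher and 6 over 1.5-fold lower, against 27.7% and 23.2% of all genes. RSM10 had 170 CPM without glucose and 54.5 CPM with glucose, and MRPL1 had 109 CPM without glucose and 36.9 CPM with glucose, the same direction as in both other experiments. MRPS12 had 6.33 CPM without glucose and 15.3 CPM with glucose. Across the 54 genes these ratios had a Spearman correlation of 0.64 with the chase at 30 min and 0.76 with 4TU total RNA.

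MRPS12 also stood apart in its level and label. With glucose it had 75.0 and 57.1 CPM at the start of the chase and 91.8 and 157 CPM in 4TU total RNA of KWY11376, against 15.3 CPM in total RNA without 4TU of KWY165, the strain of the chase. At 45 min of the chase with glucose it had 13.5 and 16.4 CPM, near the library without 4TU. Its labelled share with glucose was 83.5% and 90.2% at the start of the chase and 88.2% and 92.8% in 4TU total RNA. The next highest member, MRPL1, had a mean of 74.5% at the start of the chase and 69.97% in 4TU total RNA, and the member medians were 57.0% and 57.6%. The part of 4TU in the level of MRPS12 was not tested.

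Against the median of all genes, the members of the 4TU experiment were lower on polysomes without glucose and higher with glucose, by -0.25 and 0.35 on the log2 scale, and by -0.25 and 0.34 with library totals. Without glucose the log2 ratio of polysomal over total RNA had a median of -0.24, against 0.01 for all genes, and 8 members were higher and 18 lower on polysomes, against 25.7% and 24.4% of all genes. Of the higher members, 5 passed without the first total RNA library without glucose and 4 without the second. With glucose the median was 0.33, against -0.02, and 13 members were higher and 0 lower, against 15.3% and 13.6% (edgeR; 24 members had an unadjusted p under 0.05, and DESeq2 called 13 and 0); 1 was lower without the first polysome library with glucose. Library totals gave 2 higher and 38 lower members without glucose, and 429 higher and 2775 lower genes in place of 1424 and 1350. With glucose they turned the member median to -0.19 and gave 5 higher and 6 lower members, with 239 higher and 2051 lower genes in place of 848 and 753.

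The change of the ratio without against with glucose was below 0 for 48 of 54 genes, with a median of -0.61, against 0.01 for all genes. It passed the test for 15 members, all lower, and for 0 higher, against 8.01% and 8.16% of all genes (edgeR; DESeq2 called 14 and 0, and 26 members had an unadjusted p under 0.05). With library totals 16 members were lower and all genes were called 224 higher and 516 lower instead of 452 and 444. Leaving out 1 library gave a member median of -0.75 to -0.47, against -0.01 to 0.02 for all genes. Fewer of all genes were called lower without the second total RNA library with glucose or either total RNA library without glucose. More were called lower without the second polysome library without glucose. The count of lower members depended on single libraries. It was 2 without the second total RNA library with glucose, 2 without either total RNA library without glucose, 6 without the first polysome library with glucose and 9 without either polysome library without glucose.

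MRPL9, of the L3 family that lines the peptidyl transferase region, had the largest loss. Without glucose it had 7.85 and 10.2 CPM on polysomes and 56.6 and 58.9 CPM in total RNA, and with glucose 70.5 and 54.2 CPM on polysomes and 109 and 66.9 CPM in total RNA. Its log2 ratio was -1.94 ± 0.22 without glucose and 0.03 ± 0.20 with glucose, a change of -1.97 ± 0.30 (adjusted p = 0.00079). MRPL11 had 6.20 and 3.69 CPM on polysomes and 20.9 and 21.7 CPM in total RNA without glucose, and 54.3 and 33.6 CPM on polysomes and 72.3 and 39.5 CPM in total RNA with glucose, a change of -1.51 ± 0.43 (adjusted p = 0.024).

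MRPL36 had 17.5 and 34.7 CPM on polysomes and 114 and 120 CPM in total RNA without glucose, and 145 and 112 CPM on polysomes and 241 and 177 CPM in total RNA with glucose, a change of -1.26 ± 0.32 (adjusted p = 0.013). MRPL15, and MRPL49 of the bacterial L21 family, changed by -1.31 ± 0.41 and -1.26 ± 0.36. In MRPL9, MRPL11 and MRPL36 the polysome libraries without glucose lay below all the others.

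RSM7, MRPS16, RSM25 and MRPL8 were higher on polysomes than in total RNA in both conditions of the 4TU experiment. RSM7, of the S7 family, which in bacteria starts the assembly of the small subunit's head, had 159 and 111 CPM on polysomes and 71.0 and 80.7 CPM in total RNA without glucose, and 236 and 254 CPM on polysomes and 100 and 93.8 CPM in total RNA with glucose. Its log2 ratio was 1.59 ± 0.22 without glucose and 1.86 ± 0.22 with glucose. MRPS16, of the bacterial S16 family, had 137 and 148 CPM on polysomes and 79.7 and 90.2 CPM in total RNA without glucose, and 410 and 282 CPM on polysomes and 239 and 197 CPM in total RNA with glucose. Its log2 ratio was 1.49 ± 0.18 without glucose and 1.17 ± 0.18 with glucose, a change of 0.32 ± 0.26 (adjusted p = 0.44). RSM25, specific to mitochondria, had log2 ratios of 1.12 ± 0.20 without glucose and 1.63 ± 0.20 with glucose. MRPL8, of the bacterial L17 family, had 1.06 ± 0.19 without glucose and 1.25 ± 0.19 with glucose. The polysome libraries of RSM7 and MRPS16 lay above the total RNA libraries of the same condition, and the polysomal level itself was lower without than with glucose for MRPS16 (log2 change -0.61, adjusted p = 0.007), while RSM7 had -0.20 (adjusted p = 0.43).

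Set directly against each other, the polysome libraries held fewer reads of most members without glucose. Of the 54 genes 40 were lower and 2 higher on polysomes without than with glucose, against 35.1% and 33.3% of all genes, and the summed share was 0.184% and 0.209% of the polysome library without glucose and 0.579% and 0.470% with glucose. The 2 higher were MRPL1, with a log2 change of 0.55 ± 0.19 (adjusted p = 0.015), and RSM10, with 0.78 ± 0.21 (adjusted p = 0.0031). RSM10 had 71.0 and 89.4 CPM on polysomes without glucose and 94.8 and 53.7 CPM with glucose. The polysome libraries of RSM10 overlapped on the CPM scale, while its total RNA libraries did not. This contrast of polysome libraries was run with TMM factors alone. Whether its calls hold with another scaling or tool, or with a library left out, was not tested.

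In the libraries without 4TU the ratio of polysomal over total RNA was over 1.5-fold higher for 0 members and over 1.5-fold lower for 40 without glucose, against 6.48% and 58.5% of all genes, and higher for 1 and lower for 32 with glucose, against 7.09% and 56.9%. These ratios are of CPM, and on the log2 scale the member median was -1.06 without glucose and -0.80 with glucose, against -0.77 and -0.71 for all genes. The member median was thus below that of all genes in both conditions here, whereas with glucose it was above it in the 4TU experiment. Across the 54 genes they had a Spearman correlation of 0.84 without glucose and 0.76 with glucose with the ratios of the 4TU experiment, with which they share no library. RSM7 was the 1 higher gene, with 92.3 CPM on polysomes and 91.5 CPM in total RNA without glucose, and 180 CPM on polysomes and 62.7 CPM in total RNA with glucose. RSM25, high in the 4TU experiment, had 23.9 CPM on polysomes and 54.4 CPM in total RNA without glucose, a log2 ratio of -1.19 and so below the median of all genes, and 42.1 CPM on polysomes and 45.9 CPM in total RNA with glucose. MRPL9 was low without glucose, with 13.1 CPM on polysomes and 55.6 CPM in total RNA, but also with glucose, with 16.8 CPM on polysomes and 46.4 CPM in total RNA.

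**Figure D5:**
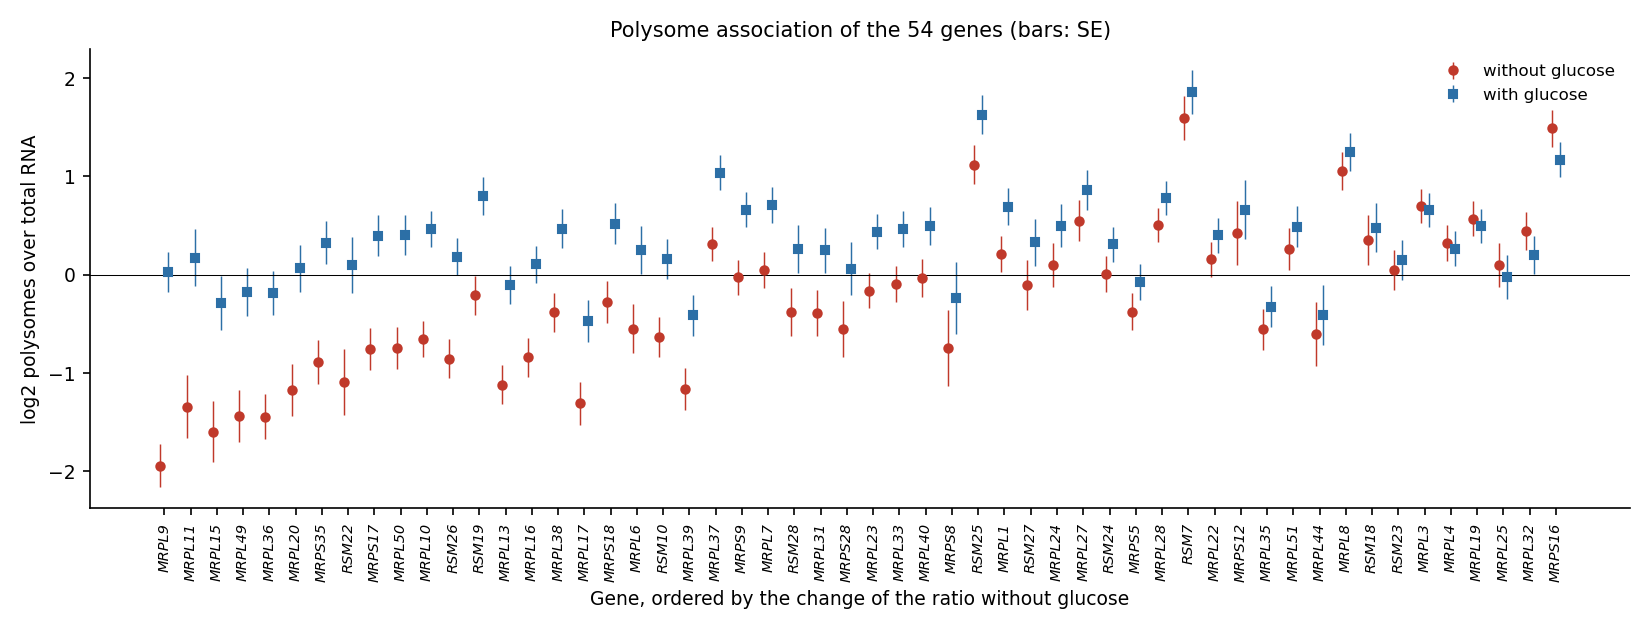
Log2 ratio of polysomal over total RNA for each of the 54 genes in the 4TU experiment, without glucose in red and with glucose in blue, with bars of 1 SE and genes ordered by the change between conditions. MRPL9 at the left falls by 1.97 on the log2 scale, and RSM7, RSM25, MRPL8 and MRPS16 lie above 1 in both conditions.

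The 4TU experiment also gives the label of the RNA on polysomes. The labels do not spell out the order of labelling and glucose withdrawal in the libraries without glucose, so their labelled reads cannot be assigned to RNA made before or after withdrawal. In total RNA 1.71% and 1.44% of the members' reads were labelled without glucose and 54.8% and 61.5% with glucose, and the labelled odds were lower without glucose for 54 of 54 members, against 99.6% of all genes. In the libraries without 4TU the share was between 0.0270% and 0.0490%. On polysomes it was 1.66% and 2.10% without glucose and 41.4% and 41.5% with glucose.

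With glucose the labelled odds were lower on polysomes than in total RNA for 26 members, against 34.4% of all genes, with a median log2 difference of -0.94 for the members and -1.02 for all genes. This count rested on single libraries: it was 1 without the first and 0 without the second total RNA library with glucose, and 1 without the first and 0 without the second polysome library with glucose. Fewer of all genes also passed with any of these libraries left out. The member median was then -1.15 to -0.75, against -1.18 to -0.85 for all genes. MRPL37 had 37.3% and 34.8% labelled reads on polysomes and 58.8% and 57.1% in total RNA, a log2 difference of -1.29 ± 0.34 (adjusted p = 0.0034). MRPL51 had 33.1% and 26.9% on polysomes and 52.9% and 64.5% in total RNA, a log2 difference of -1.74 ± 0.57 (adjusted p = 0.016). In both genes the polysome libraries lay below the total RNA libraries.

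Without glucose 0 members were higher and 0 lower on polysomes in labelled odds (edgeR; 8 had an unadjusted p under 0.05; DESeq2 was not run), against 0.725% and 0.186% of all genes, and the median was 0.44, against 0.02. Without the first polysome library without glucose 2 were higher, and without the second 2 were higher and 2 lower. Labelled reads were few there: MRPL50 had 1.29% and 1.75% labelled reads on polysomes and 0.316% and 0.305% in total RNA, and a difference of 2.26 ± 0.98 (adjusted p = 0.26). The difference between the conditions was positive for 52 of 54 members, with a median of 1.44, against 1.11 for all genes, and passed the test for 4, against 17.5% of all genes higher and 0.0929% lower. They were MRPL50 (2.99 ± 1.07, adjusted p = 0.042), MRPL39, MRPL17 and RSM24, the last 3 named because only 4 passed. The count was 2, 1, 2 and 2 without the first or second total RNA or the first or second polysome library with glucose, and 13 and 8 without the first and second polysome library without glucose.

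Genes of the same system, taken from lists, give the setting. Of 24 mitochondrial ribosomal protein genes with other names, such as MRP7 and NAM9, 15 were higher and 1 lower in the chase at 30 min (median 0.47), 1 higher and 11 lower in total RNA (median -0.36), and 0 and 3 in the change of polysome association (median -0.48), and for the 54 genes the medians were 0.43, -0.34 and -0.61. Of 32 translation and assembly factors of mitochondria 17 were higher and 4 lower in the chase (median 0.59), and of 13 mitochondrial aminoacyl-tRNA synthetases 10 were higher and 0 lower (median 0.95). Of 45 nuclear genes for respiratory chain complexes and the ATP synthase, 44 were higher and 0 lower in the chase (median 1.38) and 32 higher and 1 lower in total RNA (median 0.84). These therefore had larger medians than the 54 genes in both experiments, and the difference was not tested.

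Cytosolic ribosomal protein genes went the other way in the chase. Of 138, 0 were higher and 137 lower at 30 min, with a median of -2.01, and on polysomes 1 was higher and 110 lower in the change of association, with a median of -1.42. In total RNA 39 were higher and 12 lower, with a median of 0.20. The 54 mitochondrial genes thus lay between these and the respiratory chain genes in the chase and below both in total RNA. Of the regulators PUF3, HAP1, HAP2, HAP3, HAP4 and HAP5, 3 were higher and 0 lower in the chase at 30 min.

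Windows of 31 members overlap a window of another gene on the opposite strand and 2 overlap one on the same strand, MRPL31 with HSK3 and MRPL39 with ERG6. The sources do not state whether counting used the strand. MRPL22, of the L22 family, faces RPS3 and had 63.6 to 129 CPM over the chase libraries, against 613 to 3159 CPM of RPS3, and RSM22 faces RPS27A and had 13.5 to 41.7 CPM, against 210 to 1432 CPM.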

How the data were processed

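The authors deposited 1 table per library, with read counts and labelled read counts in windows at gene ends, the fraction of covered T positions that were converted, and reads in CPM (reads scaled to library size), all made with slamdunk 0.4.3 per the file headers. For the aligner settings, genome build and strand use no source used here gives a statement, and 72 of 112 samples were not analysed here. Per the labels' protocols, RNA was treated with iodoacetamide and sequenced from 3' ends.

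From the deposited counts, groups were compared in edgeR 4.0.16 (R 4.3.3) with TMM factors, filterByExpr and robust quasi-likelihood tests, with Benjamini-Hochberg adjustment over all genes tested and a threshold of 0.05. One fit held the 28 chase libraries and another the 8 libraries with 4TU. The chase was also set against total RNA in a fit of 36 libraries, and slopes were taken relative to the library's labelled odds. Both were added after seeing the data. Labelled and unlabelled reads were compared as odds with 1 intercept per library, for genes with a mean of at least 50 reads and 10 labelled reads in sum. CPM and labelled shares per library were computed from the counts. Ratios without 4TU have no test. Spike-in reads were counted in the chase libraries alone. Alternatives used library totals, spike-in reads, DESeq2 1.42.0 and limma 3.58.1. The models were checked on simulated data.

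Named were the 5 largest and 5 smallest changes per comparison among genes with a mean of at least 100 reads and under 20% multimapped reads, members called against the prevailing direction where there were 5 or fewer, and 7 genes at every time. Other genes named were chosen after their values were seen. The members and lists were chosen with earlier results of these data known.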

Additional observations from a re-analysis of the deposited data

Results flagged for a closer look

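Several differences of effects between conditions or experiments passed their own test in edgeR. The change from 0 to 30 min was larger without than with glucose for 27 members and smaller for 2 with TMM factors, for 43 and 0 with library totals and for 5 and 3 with spike-in reads. The shares of all genes were 32.2% and 29.2%, 41.6% and 20.4%, and 16.1% and 32.8%. With TMM the log2 difference was 1.95 for MRPS12, 1.48 for RSM10, 1.40 for MRPL25, 1.30 for MRPL1 and 1.29 for RSM28, and it was -0.82 for RSM22 and -0.53 for MRPL51.

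The slope of the labelled odds differed between the conditions for 54 members. Per 10 min the difference without minus with glucose was 0.53 for MRPL20, 0.52 for RSM25, 0.49 for RSM26, 0.49 for MRPL25 and 0.49 for MRPL11 at the upper end. At the lower end it was 0.19 for RSM10, 0.21 for MRPL32, 0.27 for MRPL44, 0.27 for MRPL23 and 0.28 for MRPL51.

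The change of polysome association passed for 15 members, with log2 values of -1.97 for MRPL9, -1.51 for MRPL11, -1.31 for MRPL15, -1.26 for MRPL49 and -1.26 for MRPL36. The labelled odds on polysomes against total RNA changed for 4 members, MRPL50 among them with 2.99.

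The change without over with glucose differed between the chase at 30 min and total RNA with 4TU for 36 members. The log2 difference was 4.07 for MRPS12, 1.76 for MRPL15, 1.68 for MRPL4, 1.46 for RSM28 and 1.44 for MRPL25. Strain and labelling differ between these experiments, the batch of libraries may differ, and their parts cannot be told apart.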

How the results depend on the processing

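Among the genes named in a comparison, 1827 values under an alternative kept their direction and side of the threshold, 171 no longer passed it, 37 newly passed it and 4 reversed, and for most of these the cause was not tested. With library totals the counts of higher and lower members in the chase were 5 and 1 at 5 min, 23 and 0 at 10 min and 33 and 1 at 15 min, and 0 were lower at 20, 30 and 45 min. With library totals the change from 0 to 30 min gave 43 higher and 0 lower, total RNA 38 lower, polysomes over total RNA 2 higher and 38 lower without glucose and 5 higher and 6 lower with glucose, and MRPL3 reversed there to -0.046 without glucose. With spike-in reads the chase gave 0 higher and 0 lower at 5 min, 3 and 0 at 10 min, 0 and 10 at 15 min, 14 and 1 at 20 min, 7 and 8 at 30 min, 2 and 12 at 45 min, and 5 higher and 3 lower for the change from 0 to 30 min.

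Relative to the library-wide labelled odds 13 members passed as slower without glucose, against 40.4% of all genes, and RSM10 and MRPL32 reversed to -0.062 and -0.042. With conversions per covered T, 2 members were higher in labelled odds on polysomes over total RNA without glucose and 2 lower with glucose, and 44 had a lower relative slope without glucose. From 0 to 20 min alone 8 had a lower relative slope without glucose. MRPS12 reversed to -0.33 from a value near 0 over all times, 0.0015 ± 0.070 (SE; edgeR adjusted p = 0.99).

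With 1 library left out, higher members in the chase were 0 to 2 at 5 min and 8 to 11 at 10 min. Lower members were 0 to 5 at 5 min, 0 to 2 at 10 min, 2 to 5 at 15 min, 1 to 4 at 20 min, 2 to 5 at 30 min and 1 to 3 for the change from 0 to 30 min. Total RNA gave 12 to 20 lower. Polysomes over total RNA gave 4 to 8 higher without glucose and 0 to 1 lower with glucose, and the change of polysome association 2 to 17 lower. Labelled odds on polysomes over total RNA gave 0 to 2 higher and 0 to 2 lower without glucose, 0 to 1 lower with glucose, and 1 to 13 higher for their change. Relative slopes were lower for 8 to 28 members without glucose and 32 to 50 with glucose. A group left with 1 library was taken to vary like the others. The number of all genes called also changed with the library or course left out.

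With the replicate number as a block (replicate block) 30 members were higher and 6 lower in the chase at 30 min, 14 lower in the change of polysome association and 19 lower in labelled odds on polysomes with glucose. The numbers were not treated as pairing the samples, since correlations of same-numbered deviations ran from -0.38 to 0.38. The libraries with the fewest reads of a member limit the labelled comparisons without glucose, where labelled reads were few.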
